A study of Mus musculus with 3 samples.

Results

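The interferon regulatory factor group measured here comprised 9 genes, namely the transcription factor genes Irf1, Irf2, Irf3, Irf4, Irf5, Irf7, Irf8 and Irf9, and Irf2bp2, which encodes a partner protein of Irf2. They were chosen by symbol in the GENCODE M21 annotation, not by any measured value, and are 9 of 55536 annotated genes in the tables. The cells were primary activated regulatory T cells (Treg) from mouse, labelled male and 3 weeks of age, and polyadenylated RNA was sequenced. There were 3 libraries, labelled technical replicates 1, 2 and 3 of 1 biological replicate, and called library 1, library 2 and library 3 here. The labels name no strain, allele, treatment or mode of activation and do not say where the libraries parted. There was 1 group, so each SD and p-value below measures the spread between these 3 libraries (n = 3), which may be technical, and says nothing about a condition.

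Interferon regulatory factors share a DNA-binding domain that reads repeated GAAA-type sequences, the core of the interferon-stimulated response element. Irf3, Irf5 and Irf7 are kept inactive in the cytoplasm until kinases downstream of innate sensors phosphorylate them, after which they switch on interferon genes. Irf9 joins Stat2 in the complex that answers type I interferon, and Irf1 is itself switched on by interferon gamma and drives antigen presentation genes, with Irf2 as its classical antagonist. Irf4 and Irf8 bind DNA weakly alone and act with partners such as Batf with Jun proteins, or PU.1, the product of Spi1. In Treg, Irf4 is required for the effector program, and Irf1 has been described as a restraint on Foxp3.

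All 9 genes were detected, meaning a level of at least 1 TPM in every library, and Irf1 stood above the others. TPM is a level scaled for transcript length and library size and can be compared between genes. Irf1 averaged 353 ± 64.7 TPM (SD, n = 3) and held 35.2% of the summed TPM of the 9 genes. Irf2 at 150 ± 4.07 TPM, Irf3 at 141 ± 19.7 TPM and Irf9 at 136 ± 12.3 TPM followed close together. Irf7 averaged 80.0 ± 16.6 TPM and Irf2bp2 59.7 ± 11.8 TPM. Irf8 at 31.4 ± 10.5 TPM, Irf4 at 27.9 ± 1.70 TPM and Irf5 at 18.8 ± 7.08 TPM were the lowest. The median of the 10601 detected protein-coding genes was 30.05 TPM, and 7 of the 9 genes had a higher mean.

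Few steps in this order exceeded the spread between libraries. A ratio between genes was called larger than the spread where log2 of (TPM + 1) over (TPM + 1) had the same sign in all 3 libraries and its mean exceeded 2 SD. Among neighbours in the order, Irf1 exceeded Irf2 by 1.21 ± 0.27 on this log2 scale, and Irf9 exceeded Irf7 by 0.77 ± 0.18. The other neighbours were not separated. Irf2 and Irf3 differed by 0.10 ± 0.17, Irf3 and Irf9 by 0.05 ± 0.33, and Irf8 and Irf4 by 0.12 ± 0.45.

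**Figure D1:**
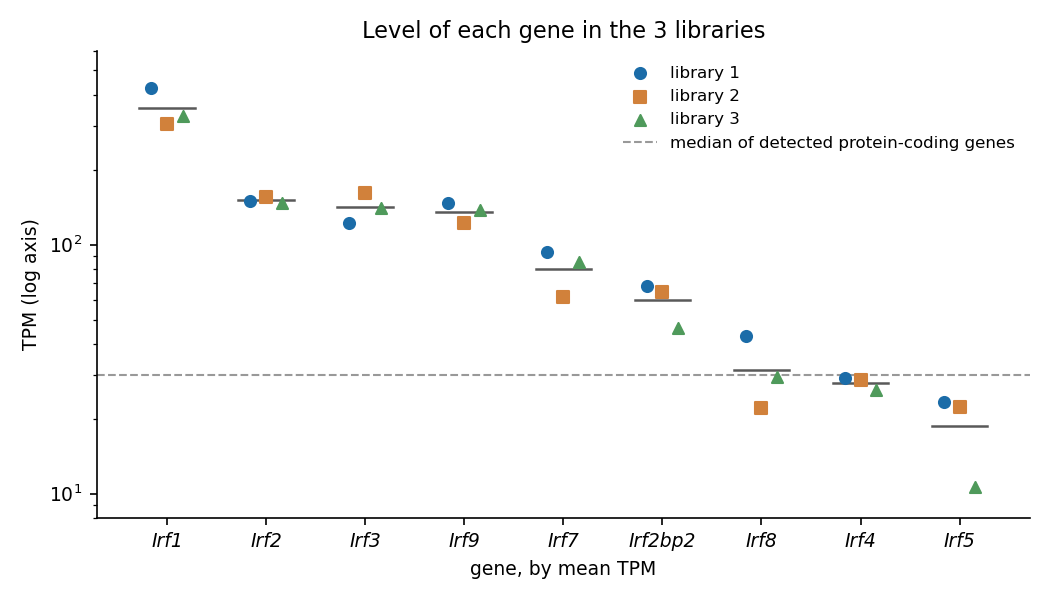
TPM (log axis) of each gene in libraries 1, 2 and 3, with a bar at the mean of the 3 libraries; the dashed line is the median of detected protein-coding genes, 30.05 TPM. Irf1 lies above the other genes in each library, and Irf5 reaches its lowest value, 10.6 TPM, in library 3.

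The libraries differed in most of these genes by more than counting error, as did most genes of this depth. Reads assigned to genes numbered 28419259 to 31959927 per library. In a chi-square test of the 3 read counts of a gene against the effective library sizes, with Benjamini-Hochberg adjustment over the 17190 genes that averaged at least 10 reads, 8 of the 9 genes had an adjusted p under 0.05. Of all genes tested, 80% passed, and of the 8114 genes that averaged at least 500 reads, as all 9 do, 92.1% passed. The test compares these libraries and not conditions. By size, 3 of the 9 genes, Irf5, Irf7 and Irf8, had a highest library at least 1.5 times the lowest in CPM, reads scaled to the effective library size, against 49.1% of all genes tested and 22.3% of those averaging at least 500. The median ratio of highest to lowest library was 1.34 for the 9 genes, 1.49 for all genes tested and 1.29 for those averaging at least 500. The share of these genes that differed was therefore near the background.

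The genes did not move together between libraries. In CPM, Irf1, Irf7, Irf8 and Irf9 were lowest in library 2, Irf4, Irf5 and Irf2bp2 in library 3, and Irf2 and Irf3 in library 1. Irf1, Irf4, Irf5, Irf8 and Irf2bp2 were highest in library 1, Irf3 in library 2, and Irf2, Irf7 and Irf9 in library 3. TPM, FPKM and CPM named the same highest library for 6 of the 9 genes and the same lowest library for 7. The exceptions for the highest library were Irf2, Irf7 and Irf9.

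**Figure D2:**
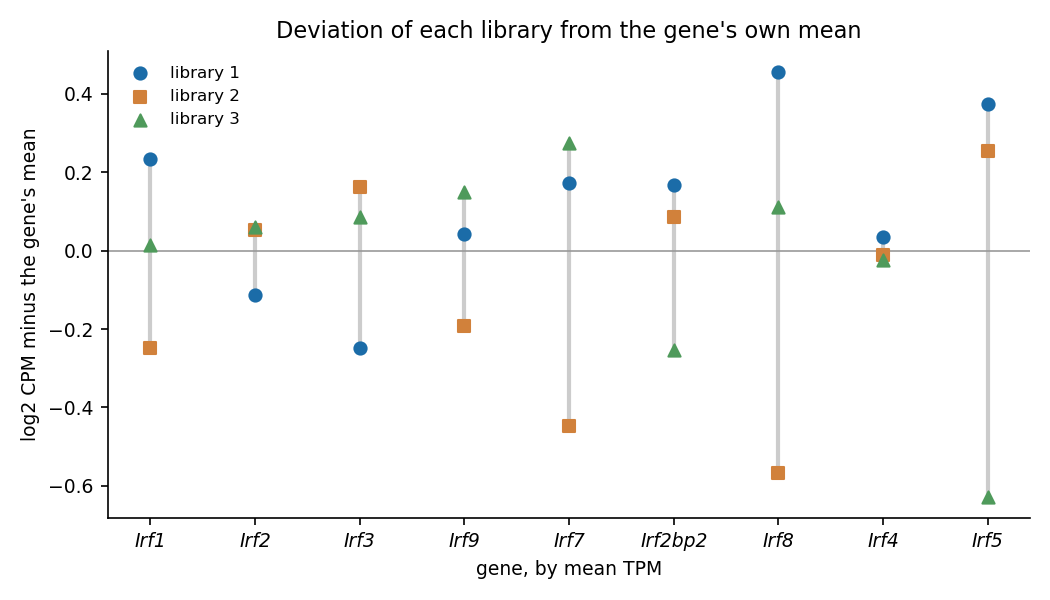
log2 CPM of each library minus the mean of the gene over the 3 libraries; each grey line spans the libraries. Irf8 and Irf7 are lowest in library 2, Irf5 and Irf2bp2 in library 3, and the 3 points of Irf4 lie within 0.1 of each other.

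The library differences also touched markers of other cell types, whose part in the results below was not tested. The 8 Treg markers summed to 4775, 4781 and 4845 TPM in libraries 1, 2 and 3, of which Trac made up 2177, 2047 and 2446 TPM. All 8 were detected and all 8 passed the chi-square test, none past 1.5-fold. Foxp3 was at 135, 150 and 106 TPM and Cd4 at 408, 434 and 259 TPM. The 8 erythroid markers, haemoglobin genes among them, summed to 14053 TPM in library 1 against 1181 and 814 TPM in libraries 2 and 3, so library 1 stood apart. Neutrophil markers summed to 14.5, 2.02 and 1.27 TPM, with Elane at 0 in every library. Plasma cell markers, which include the broadly expressed Xbp1, summed to 172, 188 and 141 TPM. Without library 1, 6 of the 9 genes passed the test, against 65.0% of genes tested, and Irf2 and Irf3 no longer did. Without library 2 the number was 8 (66.3%), and without library 3 it was 7 (54.2%), with Irf5 no longer passing. The same 3 omissions left 3, 1 and 2 genes past 1.5-fold, against 34.6%, 37.02% and 24.5% of genes tested. Irf5 was the 1 gene left without library 2, and Irf7 and Irf8 were the 2 left without library 3.

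Irf1, the activator of interferon gamma and antigen presentation genes, was most abundant in library 1. Its level was 426, 304 and 328 TPM in libraries 1, 2 and 3. Library 1 was highest and library 2 lowest, and in CPM the values were 513, 368 and 441. The CPM ratio of library 1 to library 2 was 1.40 (95% exact interval 1.36 to 1.43), and the adjusted p of the chi-square test was 1.96e-151. By the counts of the smaller gene table, in which high counts are compressed, Irf1 did not pass, with a ratio of 1.05 and an adjusted p of 0.405 in that test. Intervals here and below cover counting error only. Irf2, which occupies many of the same sites, had nearly equal levels of 149, 155 and 147 TPM. In CPM it was 153, 172 and 173, so that only library 1 was lower, with an adjusted p of 7.18e-10 in the chi-square test, and of 0.0632 by the smaller gene table. The gene lies at chr8:46739732-46847458 (mm10, + strand) and Irf1 at chr11:53770014-53778374 (+ strand).

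The promoters of Irf1, Irf2, Irf8 and Irf2bp2 held a match to an interferon response motif, and parts of these windows are shown because the motifs are those that these factors and the STAT proteins read. The windows run from 250 bases before to 50 bases after each start in RefSeq (GRCm38.p6), and 12 windows covered the 9 genes. GAAANNGAA was searched on both strands for the interferon-stimulated response element and TTCNNNGAA for the gamma-activated site bound by STAT dimers. Capitals mark the matches, and all sequences run 5′ to 3′ along the gene:
Irf1, chr11:53769894-53769962 (+): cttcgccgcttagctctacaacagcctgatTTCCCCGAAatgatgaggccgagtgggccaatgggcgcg
Irf2, chr8:46739495-46739559 (+): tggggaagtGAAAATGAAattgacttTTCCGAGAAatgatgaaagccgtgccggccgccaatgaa
Irf8, chr8:120736157-120736243 (+): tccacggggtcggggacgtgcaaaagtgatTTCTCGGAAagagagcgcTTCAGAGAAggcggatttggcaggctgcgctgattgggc
Irf2bp2, chr8:126594089-126594157 (-): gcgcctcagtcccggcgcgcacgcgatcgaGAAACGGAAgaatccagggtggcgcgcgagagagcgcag

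The gamma-activated match of Irf1 began 90 bases before its first start. Irf2 held both motifs, and Irf8 held 2 gamma-activated matches, beginning 171 and 153 bases before the start. Irf2bp2 held only a response element match. Over all 32851 windows in the table, 8.56% held the response element motif, 8.30% the gamma-activated motif and 1.07% both. Neither motif was in the windows of Irf3, Irf4, Irf5, Irf7 or Irf9, which says only that these letters are not there. A match is a description of sequence, not of binding. Irf1 used 2 annotated starts: transcripts from the first carried 65.5 ± 3.91% of its TPM and those within 50 bases of the second, at position 53770473, carried 32.1 ± 3.93%.

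Genes that depend on Irf1 or answer interferon gamma were mostly highest in library 1, as was Irf1. Of 20 such genes 19 were detected and 20 passed the chi-square test. Each count stands against all genes tested and then those averaging at least 500 reads, as most of the 20 did. The shares passing were 80% and 92.1%. In CPM 13 were highest in library 1, against 31.6% and 31.9%, and 14 were lowest in library 2, against 31.02% and 25.4%. Their median ratio of highest to lowest library was 1.46, against 1.49 and 1.29. Of the 20 genes 8 exceeded 1.5-fold, against 49.1% and 22.3%. The most abundant were B2m, the light chain of MHC class I, at 6157, 5223 and 6047 TPM, the immunoproteasome gene Psmb8 at 1110, 991 and 1302 TPM, and Tapbp, a peptide-loading factor, at 663, 458 and 529 TPM. The largest ratios were in low genes. Cxcl10, a chemokine gene, was at 42.0, 13.1 and 35.3 TPM, Ciita, the MHC class II activator, at 1.82, 0.55 and 1.42 TPM, and Cxcl9 at 3.56, 2.22 and 1.43 TPM. In CPM 6 of the 20 were highest in library 3, with B2m, Psmb8 and Psmb9 among them. Dendritic cell markers had the same order of libraries as Irf1 in sum, at 642, 231 and 455 TPM. Monocyte and macrophage markers were highest in library 1 in sum, at 208, 131 and 120 TPM. Of that sum Ccr2 made up 77.0, 62.25 and 38.3 TPM. The part of such cells in this pattern was not tested.

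Irf3 and Irf7, which induce type I interferon after phosphorylation, and Irf5, which acts downstream of Toll-like receptors, had different levels and different patterns across libraries. Irf3 was at 122, 161 and 141 TPM in libraries 1, 2 and 3, lowest in library 1. Irf7, which is itself interferon-inducible, was at 93.2, 61.4 and 85.5 TPM, lowest in library 2. Irf5 was at 23.4, 22.3 and 10.6 TPM, with library 3 well below the other two. In CPM, Irf7 in library 3 exceeded library 2 by a ratio of 1.65 and Irf5 in library 1 exceeded library 3 by 2.00 (95% exact interval 1.79 to 2.23). Adjusted p-values of the chi-square test were 2.64e-64 for Irf7, 1.61e-38 for Irf5 and 1.27e-26 for Irf3.

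Irf3 and Irf7 lie on chromosome 7, at chr7:44997648-45002848 (+ strand) and chr7:141262706-141266481 (- strand), and Irf5 at chr6:29526625-29541871 (+ strand). Irf5 overlaps Tnpo3, a nuclear import gene at 63.2 to 77.2 TPM, on the opposite strand by 1045 bases, and reads of the pair cannot be told apart there without strand.

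Set against each other, Irf3 exceeded Irf5 by 2.92 ± 0.64 on the log2 (TPM + 1) scale, and Irf5 lay below Irf7 by a log2 difference of -2.09 ± 0.75. Both were larger than the spread. The ratio of Irf3 to Irf7, 0.83 ± 0.51, was not, though it became so without library 1 (1.05 ± 0.47) or without library 2 (0.55 ± 0.23). These ratios count all transcripts of a gene, and for Irf3 and Irf7 most of the TPM was not on protein-coding transcripts.

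**Figure D3:**
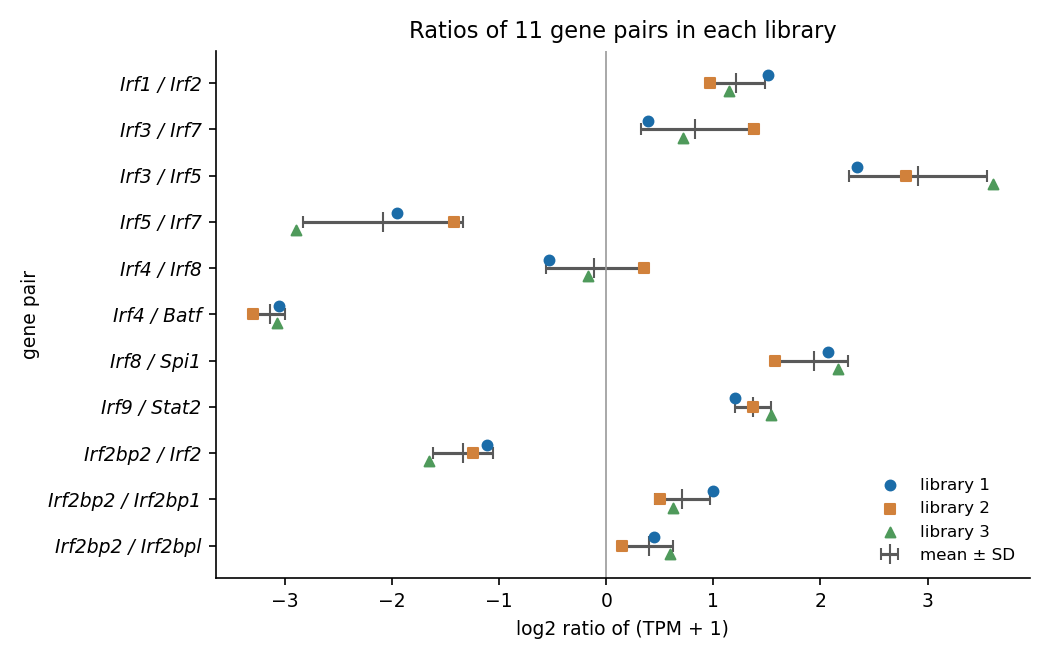
log2 ratio of (TPM + 1) for 11 gene pairs, with a point per library and the mean ± SD over the 3 libraries. Of the 11 pairs, 8 lie on one side of 0 by more than 2 SD; Irf3 with Irf7, Irf4 with Irf8 and Irf2bp2 with Irf2bpl do not.

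Irf3 and Irf7 differed from the other 7 genes in the kind of transcript present. The 9 genes have 71 annotated transcripts, to which the authors' estimate divides the reads. Protein-coding transcripts held 32.8 ± 2.30% of the TPM of Irf3 and 35.5 ± 6.41% of that of Irf7, but 84.4% or more of each of the others. Retained-intron models held 67.2 ± 2.30% for Irf3. Those with an exon spanning a whole intron of Irf3-202, its main coding transcript, held 29.1 ± 1.25%, all at intron 5. The other models of this class span no whole intron of Irf3-202, so the class share is not the share of RNA that keeps an intron. For Irf7 the retained-intron models held 54.2%, 70.3% and 49.3% in libraries 1, 2 and 3, so library 2 had the largest such share. Irf9 at 15.6 ± 3.75% and Irf2 at 11.4 ± 0.49% had smaller shares.

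**Figure D4:**
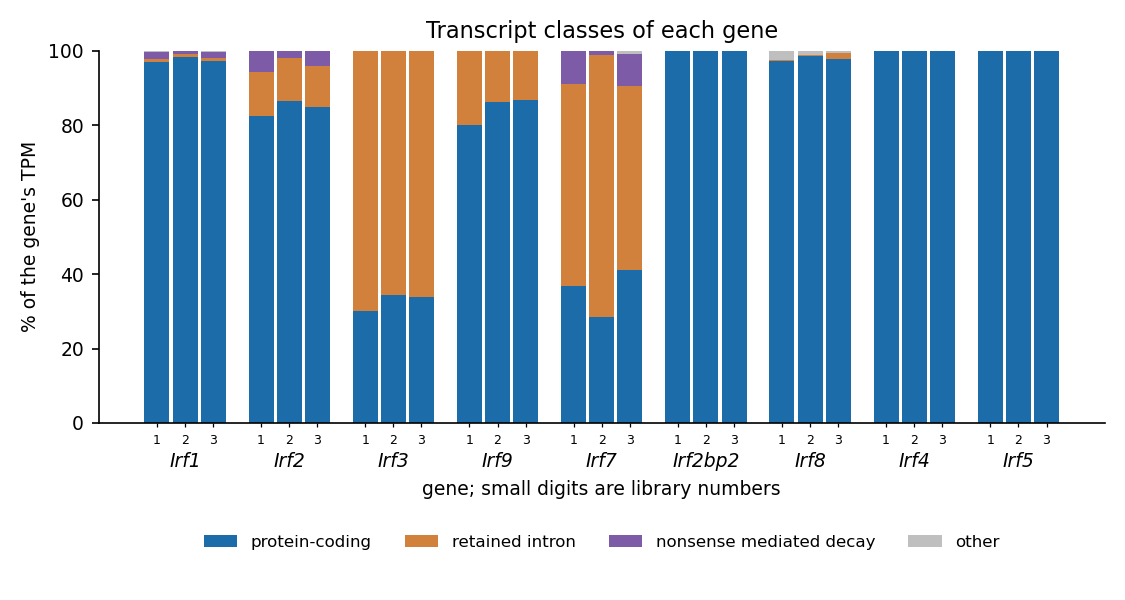
Share of the TPM of each gene on protein-coding, retained-intron, nonsense-mediated decay and other transcripts, with 1 bar for each library. Retained-intron models take the larger part of Irf3 (66 to 70%) and 49.3 to 70.3% of Irf7, while Irf4, Irf5 and Irf2bp2 are wholly on protein-coding transcripts.

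The most abundant transcript of Irf7 and of Irf3 each kept 1 short intron. Irf7-210 held 33.0%, 44.3% and 32.7% of the TPM of Irf7 in libraries 1, 2 and 3, against 18.6 ± 3.99% for Irf7-202, the coding transcript with this intron spliced. It keeps intron 5 of 8, 69 bases long. Irf3-207 held 28.4 ± 0.31% of the TPM of Irf3, with the 3 libraries nearly equal, against 21.98 ± 1.80% for the spliced Irf3-202. It keeps intron 5 of 7, 98 bases long. Both introns are shown 5′ to 3′ along the gene in lower case, with 10 bases of the exon on each side in capitals:
Irf7 intron 5, chr7:141264656-141264724 (-): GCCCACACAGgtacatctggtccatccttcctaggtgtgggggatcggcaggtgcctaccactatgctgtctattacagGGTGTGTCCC
Irf3 intron 5, chr7:45000547-45000644 (+): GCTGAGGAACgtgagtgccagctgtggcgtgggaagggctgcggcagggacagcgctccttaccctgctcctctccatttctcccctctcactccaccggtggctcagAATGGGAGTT

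Both introns begin with gt and end with ag. Their G and C content was 53.6% for Irf7 and 65.3% for Irf3. Retained-intron transcripts with an exon spanning the whole of intron 5 held 37.3%, 49.0% and 36.3% of the TPM of Irf7. For each of the other introns such transcripts held 4.20 to 11.3% on average. The shares are of the TPM of all Irf7 transcripts. Other transcript classes, and models that end inside an intron, were not credited to that intron, so these shares depend on the counting rule. Another retained-intron model of Irf3, Irf3-212 with 15.5 ± 0.97% of the TPM, is a single exon inside the span of Bcl2l12 on the opposite strand. Whether the reads keep strand is not given in the sources used here, so reads of the 2 genes cannot be told apart there. Bcl2l12 was at 16.4 to 20.5 TPM.

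Restricting the level to protein-coding transcripts changed the order of the genes. Irf3 had a mean of 46.6 in place of 141 TPM and Irf7 of 29.03 in place of 80.0 TPM, while Irf1 stayed first at 344 TPM and Irf2 second at 127 TPM. Irf9 at 114 TPM and Irf2bp2 at 59.7 TPM then had higher means than Irf3. Of the 8 steps in this order, only Irf1 over Irf2 (1.41 ± 0.30) and Irf9 over Irf2bp2 (0.94 ± 0.36) were larger than the spread on the log2 (TPM + 1) scale. Irf2bp2 over Irf3 was 0.35 ± 0.47. Coding Irf7 was at 34.4, 17.5 and 35.2 TPM, a ratio of 2.01 between the highest and lowest library. Irf7-210 was at 30.8, 27.2 and 27.9 TPM in the same libraries, so the retained form showed less of the dip in library 2 than the coding form. On this measure Irf3 over Irf5 was 1.32 ± 0.72 and Irf5 over Irf7 was -0.61 ± 0.99 on the log2 scale, and neither was larger than the spread.

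The sensors, adaptors and kinases that act on Irf3, Irf5 and Irf7 were largely present. Of 20 listed genes 17 were detected, and 17 of the 18 tested passed the chi-square test, against 80% of all genes tested. Their median ratio was 1.48, against 1.49 for all genes tested and 1.29 for those averaging at least 500 reads. Tmem173, which encodes the adaptor STING, was highest at 314, 324 and 307 TPM, followed by Ikbke, a kinase of Irf3 and Irf7, at 132, 207 and 161 TPM and Irak1, a Toll-like receptor kinase, at 184, 171 and 120 TPM. Tlr9 had 0 reads in every library, and Tlr3 was at most 0.06 TPM. Tlr7 was detected, at 6.02, 8.04 and 8.65 TPM, and was highest in library 3. The largest ratios were 1.99 for the adaptor gene Ticam1, at 7.27, 8.59 and 3.89 TPM, 1.99 for Tlr4, at 1.33, 1.69 and 0.83 TPM, and 1.81 for Traf3, at 38.1, 29.9 and 20.3 TPM. All 3 were lowest in library 3, as was Irf5. Of the 18 tested genes 9 were lowest there, against 37.3% of all genes tested and 43.9% of those averaging at least 500 reads.

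The listed interferon genes other than Ifng were at the limit of detection. Of 10 interferon genes 5 had 0 reads in all 3 libraries, which allows up to 3 reads per library. Ifnb1 was at 0.08 TPM in library 1 and listed at 0 in the others. Ifng was the only one of the 10 detected, at 26.5, 5.76 and 6.64 TPM, and thus highest in library 1, as Irf1 was. Its ratio of library 1 to library 2 in CPM was 4.64.

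Irf9, the DNA-binding subunit of the complex with Stat2, had a CPM ratio of highest to lowest library of 1.27, against 1.40 for Irf1 and 1.65 for Irf7. It was at 147, 122 and 138 TPM in libraries 1, 2 and 3, and in CPM at 207, 176 and 223. Library 2 was lowest on both scales, and the adjusted p of the chi-square test was 2.03e-36. Stat2, its signalling partner, was at 63.3, 46.6 and 46.9 TPM. Irf9 exceeded Stat2 by 1.37 ± 0.17 on the log2 (TPM + 1) scale, which was larger than the spread. The gene, at chr14:55603571-55610030 (+ strand), overlaps Rnf31 on the same strand by 123 bases. Most of its TPM, 83.3 ± 1.499%, came from transcripts at the second RefSeq start, and 2.40 ± 1.10% from the first.

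The receptor and kinase genes upstream of this complex were abundant except for the interferon lambda receptor. Of 11 genes 10 were detected and 9 of the 10 tested passed the chi-square test, against 80% of all genes tested. Their median ratio was 1.28, against 1.49 for all genes tested and 1.29 for those averaging at least 500 reads. The kinase gene Jak1 was at 409, 457 and 366 TPM and the receptor gene Ifngr1 at 544, 301 and 206 TPM. Ifngr1 had the largest ratio, 2.38, followed by Jak2 with 1.45. Ifnlr1 was at most 0.16 TPM. Il10rb, with an adjusted p of 0.242 in the chi-square test, was the gene that did not pass, at 77.7, 74.1 and 68.3 TPM.

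Type I interferon-stimulated genes, the targets of the Irf9 complex and of Irf7, were mostly lowest in library 2, as were Irf7 and Irf9. Of 20 genes 16 were detected and all 20 passed the chi-square test, against 80% of all genes tested. Of the 20 genes 18 exceeded 1.5-fold, against 49.1%. Their median ratio was 2.25, against 1.49 for all genes tested and 1.29 for those averaging at least 500 reads. In CPM 15 of the 20 were highest in library 3, against 39.1% of all genes tested, and 15 were lowest in library 2, against 31.02%. The summed level was 675, 611 and 937 TPM. Zbp1, a nucleic acid sensor gene, was at 197, 165 and 261 TPM, and Ifi35 at 112, 149 and 163 TPM. Xaf1 was at 85.0, 59.7 and 99.5 TPM, and Isg15, a ubiquitin-like modifier gene, at 27.3, 19.7 and 58.4 TPM. The largest ratios among genes with reads in all 3 libraries were in low genes, such as Oasl1, at 3.69, 0.42 and 1.53 TPM, and Mx2, at 0.44, 0.48 and 2.20 TPM. Ifi44, the lowest, was at 0.86, 0 and 0.70 TPM. B cell markers had the same order of libraries in sum, at 52.0, 46.4 and 76.3 TPM, of which Cd79b made up 28.3, 29.6 and 38.6 TPM. Of the 10 B cell markers 7 were highest in library 3 and 8 lowest in library 2. Pax5, Blk and Fcer2a were highest in library 1. The part of B cells in the pattern of this list was not tested.

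**Figure D5:**
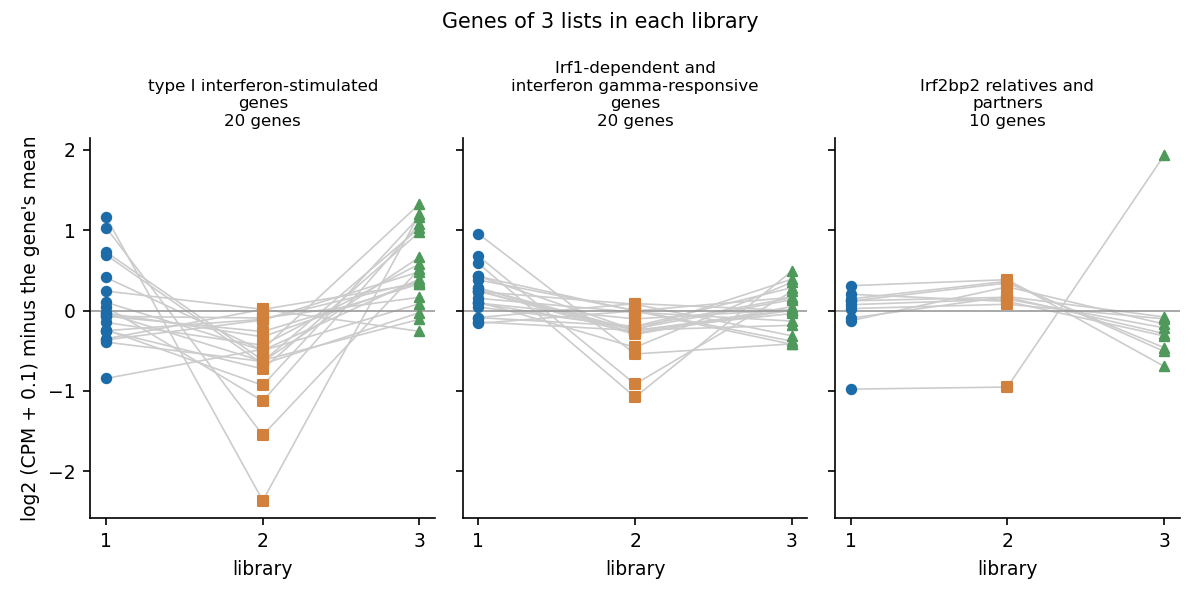
log2 (CPM + 0.1) of each library minus the mean of the gene, for the tested genes of 3 lists; a grey line joins the 3 libraries of a gene. Of the interferon-stimulated genes 15 of 20 are lowest in library 2, of the Irf1 and interferon gamma genes 14 of 20, and of the Irf2bp2 relatives and partners 8 of 10 are lowest in library 3.

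By the distance between centred log2 CPM over the 3 libraries, the listed genes nearest to Irf7 among 106 were Dhx58, a cytosolic RNA sensor gene, at 18, 12.6 and 16.9 TPM, and Gbp2, an interferon-induced GTPase gene, at 73.4, 49.8 and 78.8 TPM. The nearest to Irf5 were Gata3 at 184, 168 and 82.1 TPM and Prdm1 at 27.6, 27.2 and 12.4 TPM, transcription factor genes of effector Treg. The nearest to Irf8 were the interferon-stimulated genes Oas1a at 5.41, 2.84 and 3.88 TPM and Rsad2 at 5.66, 2.47 and 3.10 TPM. The distances were 0.07 and 0.10 for Irf7, 0.01 and 0.05 for Irf5, and 0.07 and 0.30 for Irf8. With 3 points per gene such likeness is a description only.

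Irf4, the factor of the effector Treg program, was the steadiest of the 9 genes in CPM. It was at 29.3, 28.5 and 26.01 TPM in libraries 1, 2 and 3, and at 83.7, 81.1 and 80.5 CPM. The gene lies at chr13:30749226-30766976 (+ strand). Its adjusted p in the chi-square test was 0.345. The 95% exact intervals of its CPM ratios were 0.976 to 1.09 for library 1 over 2, 0.985 to 1.10 for library 1 over 3 and 0.952 to 1.07 for library 2 over 3. Any difference in Irf4 within these bounds was not detectable at this depth.

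The estimated split between the 2 long transcripts of Irf4 was less steady than its total. They differ by 3 bases at the start of exon 5, where Irf4-201 begins the exon at position 30753445 of chromosome 13 and Irf4-202 at position 30753448. Irf4-201 held 61.5%, 65.7% and 78.0% of the TPM in libraries 1, 2 and 3, and Irf4-202 held 35.2%, 30.8% and 16.7%. Irf4-201 was the larger in each library, and library 3 had the widest gap. The 2 transcripts are otherwise the same, so only reads over this junction can separate them. The shares therefore rest on fewer reads than the total of the gene and carry no interval. Whether the split differed between libraries was not tested. The junction, from the GENCODE M21 transcripts, is shown 5′ to 3′ with the 3 added bases in capitals:
Irf4-201: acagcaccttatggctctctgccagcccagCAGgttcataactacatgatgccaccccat
Irf4-202: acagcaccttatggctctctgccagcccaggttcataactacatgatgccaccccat

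Irf8, a relative of Irf4 that is best known in B cells, macrophages and dendritic cells, was at 42.9, 22.1 and 29.4 TPM. Library 1 was highest and library 2 lowest, with a CPM ratio of 2.03 (95% exact interval 1.88 to 2.20) and an adjusted p of 4.36e-71 in the chi-square test. Its promoter holds 2 gamma-activated matches, and 98.3 ± 1.00% of its TPM came from transcripts at that first start. The read-through gene Gm20388 overlaps it, at chr8:120736358-120756694, on the same strand, with 124, 33.6 and 0.03 reads in the 3 libraries, against 2022, 929 and 1694 for Irf8. Irf8 and Irf4 differed by less than the spread, with a log2 ratio of Irf4 to Irf8 of -0.54, 0.36 and -0.17 in the 3 libraries.

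The summed dendritic cell markers had the same order of libraries as Irf8, though not every marker did. They summed to 642, 231 and 455 TPM, of which the MHC class II genes Cd74, at 460, 138 and 301 TPM, and H2-Aa, at 115, 22.9 and 66.7 TPM, made up most. Of these 10 markers 3 were detected, and 5 of the 7 tested were highest in library 1. Itgax was at 2.12, 0.45 and 0.92 TPM, Zbtb46 at 3.08, 1.32 and 0.78 TPM and Xcr1 at 1.38, 1.26 and 0.65 TPM. Flt3 and Bst2, which is also interferon-stimulated, were highest in library 3. Clec9a, Cd209a and Siglech were at 0.16 TPM or less in every library. Monocyte and macrophage markers, cells in which Irf5 and Irf8 are abundant, summed to 208, 131 and 120 TPM, with 6 of 10 detected. Of these 10 markers 8 were highest in library 1, Cd14 in library 2 and Itgam in library 3. Of 10 B cell markers 5 were detected. The part of such cells in the levels of Irf8 and Irf5 was not tested, and in bulk RNA fewer cells of a type and less RNA per cell cannot be told apart.

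Most listed partners of Irf4 and Irf8 were present. Of 12 genes 9 were detected and 12 passed the chi-square test, against 80% of all genes tested. Their median ratio was 1.37, against 1.49 for all genes tested and 1.29 for those averaging at least 500 reads. Batf was at 250, 290 and 226 TPM, and Irf4 lay below it by a log2 difference of -3.14 ± 0.14, the same in sign and similar in size in each library. Spi1 was at 9.41, 6.76 and 5.77 TPM, and Irf8 exceeded it by 1.94 ± 0.32. The most abundant partners were Ets1 at 751, 787 and 571 TPM, Jund at 517, 563 and 616 TPM and Junb at 346, 312 and 239 TPM. The largest ratios were in the lowest genes: 7.30 for Batf2, at 2.10, 0.26 and 0.61 TPM, 5.78 for Batf3, at 1.98, 0.37 and 1.97 TPM, and 3.82 for Spib, at 0.62, 1.73 and 2.26 TPM.

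The 16 genes tied to Irf4 in effector Treg all had a larger ratio of highest to lowest library than the 1.04 of Irf4. That value is far below the median of 1.49 over all genes tested, so most genes exceed it. All 16 were detected and 15 passed the chi-square test, against 80% of all genes tested and 92.1% of those averaging at least 500 reads. Past 1.5-fold were 11, against 49.1% and 22.3%. Their median ratio was 1.69, against 1.49 and 1.29. Of the 16 genes 9 were lowest in library 3, against 37.3% and 43.9%. Icos, a costimulatory receptor gene, was at 376, 303 and 300 TPM, Gata3 at 184, 168 and 82.1 TPM and Il1r2, a decoy receptor gene, at 136, 107 and 93.0 TPM. Il1rl1, which encodes the receptor for interleukin 33, had the largest ratio, 3.55, at 52.1, 112 and 31.8 TPM. Cxcr3, a chemokine receptor gene, followed with 2.16, at 153, 70.9 and 73.1 TPM, and Prdm1 with 2.05. Bcl6, at 6.93, 10.6 and 10.7 TPM, was the lowest.

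Irf2bp2, the gene of a corepressor that binds Irf2 and restrains NFAT activity, was lowest in library 3. It was at 68.2, 64.8 and 46.2 TPM, and in CPM at 215, 203 and 161. Libraries 1 and 2 lay close together, and the adjusted p of the chi-square test was 7.20e-58. The annotation gives it 1 transcript, at chr8:126588296-126593986 (- strand). It lay below Irf2 by a log2 difference of -1.34 ± 0.28 and above its paralogue Irf2bp1 by 0.71 ± 0.26, both larger than the spread. Its excess over the other paralogue, Irf2bpl, 0.39 ± 0.23, was not, though it became so without library 2 (0.52 ± 0.11).

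The relatives and partners of Irf2bp2 were also mostly lowest in library 3. Of 11 listed genes 8 were detected and 9 of the 10 tested passed the chi-square test, against 80% of all genes tested. Their median ratio was 1.41, against 1.49 for all genes tested and 1.29 for those averaging at least 500 reads. In CPM 8 of the 10 were lowest in library 3, against 37.3% and 43.9% of the same backgrounds. As many as 8 were highest in library 2, against 29.3% and 32.7%, whereas Irf2bp2 was highest in library 1. Klf2, a quiescence factor gene, was at 491, 595 and 450 TPM, Nfatc1 at 175, 164 and 111 TPM and Nfatc3 at 145, 152 and 106 TPM. Nfatc2 had a ratio of 2.11, at 51.7, 54.0 and 28.2 TPM. Tead1 had a ratio of 27.3 but was at 0.61 TPM or less, and Vegfa was at 0.43, 0.58 and 0.72 TPM. Kdr, the lowest, was at 0.04 TPM or less.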

How the data were processed

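All 3 libraries, labelled technical replicates of 1 biological replicate, formed 1 group. The members and the gene lists were chosen with earlier results of these data known. One gene that the symbol range covers and a result that another named gene needs are not reported here, and list counts still include the latter. Expected counts, deposited by the authors per gene and transcript (mm10, GENCODE M21), are not normalized, and the columns follow RSEM's format per the file headers. TPM and FPKM as deposited were scaled by the authors for length and depth. A smaller deposited table holds whole-number counts for 22457 genes, with the most abundant genes compressed, and served as an alternative. For the aligner, counter, kit and strandedness: not given in the sources used here.

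Spike-in and transfer RNA entries (0.166 to 0.229% of reads) were left out. Expected counts were rounded and tested by chi-square on 2 degrees of freedom, expecting reads in proportion to the TMM effective sizes from edgeR 4.0.16 (R 4.3.3), in genes averaging at least 10 reads, with Benjamini-Hochberg adjustment at 0.05. A quasi-likelihood contrast needs a second group and was not fitted. Pair ratios used a pseudocount of 1. A count of 0 allows up to 3 reads. CPM was computed with the same library sizes. The chi-square step and the motif search were tested on simulated data. Named genes were all members, both genes of each pair, of each list the 3 highest and the lowest by mean TPM and the 3 with the largest ratio, and the 2 listed genes nearest to each member past 1.5-fold. Foxp3, Isg15, Ifnb1, Ifng, Psmb9, Tlr3, Tlr7, Il10rb and the markers and overlapping genes named were chosen after their values were seen. Protein sequences were not used here. Alternatives covered DESeq2 1.42.0 size factors, total reads, filters, posterior mean estimates, FPKM, a pseudocount of 0.1, coding transcripts, the smaller table and each library left out. The scripts ran in Python 3.11.15 with scipy 1.17.1, pandas 2.3.3, numpy 2.4.6 and matplotlib 3.10.9.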

Additional observations from a re-analysis of the deposited data

How the results depend on the processing

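Of 293 values recomputed under alternatives, 269 were taken as unchanged. For a ratio or test this meant the same direction and call, and for a level or share a move within the spread. Counts were taken as unchanged within 1.5-fold of the main count, so that 6 against 8 genes passing is among the 269. By the counts of the smaller gene table, 6 of the 9 genes passed the chi-square test, without Irf1 (adjusted p = 0.405) and Irf2 (adjusted p = 0.0632), and 2 exceeded 1.5-fold, against 65.2% and 34.2% of the 12026 genes tested in it. That table compresses high counts, and the cause of the difference was not tested. Its counts for Irf1 had a ratio of highest to lowest library of 1.05. For Irf7 that ratio was 1.44, against 1.65 in the main counts, so Irf5 and Irf8 were the 2 genes past 1.5-fold. Leaving out each library gave 6 to 8 genes passing, against 54.2 to 66.3% of genes tested, and 1 to 3 genes past 1.5-fold, against 24.5 to 37.02%. These shares cover all genes averaging at least 10 reads. In the main test, 92.1% of genes averaging at least 500 reads, as all 9 do, passed, against 80% of all genes tested. The shares at that depth were not computed for the alternatives, so these counts cannot be placed above or below it. Irf2 had an adjusted p of 0.779 and Irf3 of 0.0544 without library 1, and Irf5 of 0.137 without library 3, all by the chi-square test. With protein-coding transcripts only, the log2 ratio of Irf3 to Irf5 was 1.32 and that of Irf5 to Irf7 was -0.61, both within the spread. Leaving out each library, the log2 ratio of Irf3 to Irf7 ranged from 0.55 to 1.05, larger than the spread without library 1 or library 2, that of Irf2bp2 to Irf2bpl from 0.29 to 0.52, larger than the spread without library 2, and that of Irf4 to Irf8 from -0.35 to 0.0929, reversed without library 1. The coding share of Irf3 was 35.6% by expected counts. No paired analysis was possible because all 3 libraries form 1 group. Shares of transcripts rest on estimated assignments, and Irf5, with 506 to 951 reads, is the gene most limited by depth.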
